A study of Mus musculus with 8 samples.

Results

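The neutrophil azurophil granule genes examined here were Mpo, Elane, Prtn3, Ctsg, Ms4a3, Ctsc, Srgn and Serpinb1a. They were taken as a named list, not by a cut on measured values, and are 8 of the 41214 genes counted. The list was chosen with earlier results of these data known. All 8 matched an Ensembl identifier and passed the filter on low counts in each of the 5 comparisons. Their levels were read as CPM, that is counts scaled to a common library size with TMM normalization, in the 8 libraries of total bone marrow (BM) RNA.

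Azurophil granules are the first granules that a developing neutrophil makes. They are filled at the promyelocyte stage, when Mpo, Elane, Prtn3 and Ctsg are transcribed, and these transcripts decline before the specific and gelatinase granules of later stages form. Mpo encodes myeloperoxidase, which makes hypochlorous acid from hydrogen peroxide. Elane, Prtn3 and Ctsg encode the serine proteases neutrophil elastase, proteinase 3 and cathepsin G, which are made as inactive precursors. Ctsc encodes cathepsin C (dipeptidyl peptidase I), which removes the amino-terminal dipeptide and so activates them. Srgn encodes serglycin, the proteoglycan core protein that retains basic proteins in granules, and Serpinb1a encodes a cytosolic serpin that inhibits these proteases. Ms4a3 encodes a membrane protein expressed in granulocyte-monocyte progenitors.

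The mice were on a C57BL/6 background and differed at the Gfi1 locus, which encodes a transcriptional repressor required for neutrophil development. KO mice lack Gfi1, and KD mice carry a human GFI1 cDNA in place of the mouse gene, with a neomycin cassette that lowers its expression. The 4 groups held 2 separate mice each: young KD (39 and 42 days old), young KO (48 and 44 days), sick KD (187 and 78 days) and old KO (158 and 101 days). The labels give acute myeloid leukemia (AML) for the sick KD mice and no AML for the old KO mice, whereas the study names the illness of sick KD mice a myeloproliferative neoplasm. No wild-type mouse was among the libraries analysed here, so that every group carried an altered Gfi1 allele. Sick KD mice differed from young KD mice in both age and illness, and from old KO mice in both genotype and illness, and these cannot be told apart.

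The libraries held 26642067 to 42679114 counts on genes. The 2 sick KD libraries stood apart in reads outside annotated genes (42.0% and 38.8% of uniquely aligned reads, against 26.9% to 33.8% in the other 6) and in mitochondrially encoded counts (1.42% and 1.16% against 0.464% to 0.787%). Mouse Gfi1 itself was at 5.49 to 7.15 CPM in the 4 KD libraries and at 13.3 to 29.7 CPM in the 4 KO libraries. A count over the whole gene does not separate a transcript of a disrupted allele from an intact one, and the human cDNA was not counted, so these values do not check the genotypes and the direction of each KO to KD comparison rests on the labels. Ptprc, which encodes the pan-leukocyte protein CD45, and Itgam, which encodes Mac-1, did not pass the test in any comparison, with sick KD to young KD log2 fold changes of 0.10 and -0.03 (edgeR adjusted p = 0.718 and 0.909).

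The 8 genes lie on 6 chromosomes (GRCm38). Prtn3 (chr10:79874476-79883174) and Elane (chr10:79886247-79888215) are separated by 3073 bases on the same strand, and Srgn lies elsewhere on that chromosome (chr10:62493833-62527451). Mpo is on chromosome 11 (chr11:87793581-87804413), Ctsg on 14 (chr14:56099881-56102574), Ms4a3 on 19 (chr19:11629496-11640851), Ctsc on 7 (chr7:88278085-88310888) and Serpinb1a on 13 (chr13:32842092-32851185). The upstream sequences of the 3 protease genes, of Ms4a3 and of Ctsc are printed because the first 4 of these genes rose in sick KD mice and Ctsc did not pass the test. They are taken from the 250 bases before the RefSeq start (GRCm38.p6), without bases inside GENCODE exons. They are written 5′ to 3′ on the strand of the gene with GGAAGT or its reverse complement in capitals. RefSeq and GENCODE starts differ for some genes. The Prtn3 stretch lies inside the GENCODE gene given above. The Elane stretch ends at the GENCODE start, which comes before the RefSeq start.
Elane, chr10:79886062-79886246, forward strand: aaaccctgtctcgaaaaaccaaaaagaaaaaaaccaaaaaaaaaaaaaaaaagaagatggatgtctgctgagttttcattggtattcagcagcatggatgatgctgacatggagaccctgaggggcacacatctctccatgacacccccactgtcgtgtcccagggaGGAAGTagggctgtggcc
Prtn3, chr10:79879417-79879613, forward strand: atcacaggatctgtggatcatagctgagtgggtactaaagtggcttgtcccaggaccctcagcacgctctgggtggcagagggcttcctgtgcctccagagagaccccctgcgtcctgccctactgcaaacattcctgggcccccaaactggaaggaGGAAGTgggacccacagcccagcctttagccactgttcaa
Ctsg, chr14:56102575-56102824, reverse strand: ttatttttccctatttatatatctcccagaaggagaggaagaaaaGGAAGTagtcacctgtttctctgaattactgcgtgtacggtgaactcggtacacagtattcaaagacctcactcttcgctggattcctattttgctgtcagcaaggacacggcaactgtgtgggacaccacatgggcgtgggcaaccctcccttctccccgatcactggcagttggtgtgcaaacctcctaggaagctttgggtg
Ms4a3, chr19:11640852-11641101, reverse strand: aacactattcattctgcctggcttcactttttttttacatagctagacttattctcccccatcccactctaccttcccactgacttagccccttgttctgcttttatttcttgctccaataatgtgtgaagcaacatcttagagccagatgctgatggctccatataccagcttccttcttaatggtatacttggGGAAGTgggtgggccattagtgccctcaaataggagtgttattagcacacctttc
Ctsc, chr7:88277835-88278084, forward strand: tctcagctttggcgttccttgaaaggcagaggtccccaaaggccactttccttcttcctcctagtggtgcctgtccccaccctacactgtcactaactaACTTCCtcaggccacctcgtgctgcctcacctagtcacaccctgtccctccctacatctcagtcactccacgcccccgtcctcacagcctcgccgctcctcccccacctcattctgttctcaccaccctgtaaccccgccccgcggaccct

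GGAAGT, a core sequence bound by PU.1 and other ETS factors, was present on either strand in all 7 members that have a window (7 of their 8 windows), against 19.7% of 32851 RefSeq promoter windows. It began 83 bases before the RefSeq start in Elane, 93 in Prtn3, 205 in Ctsg, 55 in Ms4a3, 151 in Ctsc, 145 in Srgn and 222 in Mpo. Serpinb1a has no window. TGTGGT, a RUNX motif, was present in 2 of the 7 genes (Ctsg and Srgn) against 14.05% of windows, and the short MYB motif AACNG in 6 of 7 against 74.2%. TTGCNNAA (C/EBP) and AAATCA (the GFI1 core) were found in 0 of the 7 genes, against 9.56% and 12.4% of windows. Both strands were searched, no motif is contained in another, and the motifs were chosen with these promoters known, so the matches are a description only.

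Per kilobase of exon, Mpo and the proteases were among the most abundant messages of the marrow. The mean over the 8 libraries was 778 CPM per kb for Mpo, which ranked 32 of 21474 protein-coding genes, followed by Elane at 742 (rank 35), Ctsg at 660 (rank 46) and Prtn3 at 547 (rank 62). Ctsc at 157 CPM per kb (rank 259), Srgn at 155 (rank 267), Ms4a3 at 115 (rank 350) and Serpinb1a at 82.0 (rank 515) were lower. The 8 genes together took 0.747% and 0.808% of the counts on genes in the sick KD libraries and 0.569% to 0.685% in the other 6. Their summed level was 8347 ± 444 CPM in sick KD, 6354 ± 409 in young KO, 6182 ± 899 in old KO and 5833 ± 429 in young KD (mean ± SD, n = 2). In bulk RNA, fewer cells of a type and less RNA per cell cannot be told apart.

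**Figure D1:**
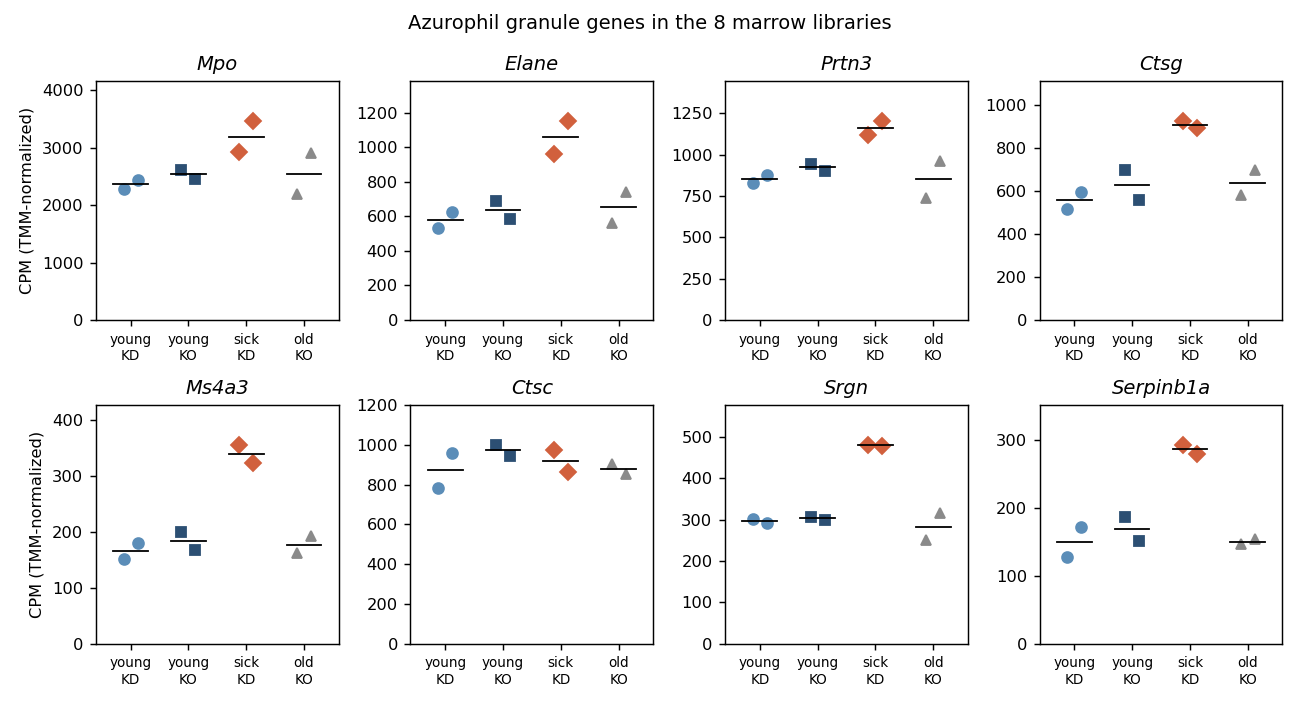
Level of each of the 8 genes in every library, in TMM-normalized CPM on a linear axis from 0, by group. Each symbol is 1 mouse and each line the mean of the 2 mice of a group. Both sick KD libraries lie above the other 6 for 7 genes, with Ctsc the exception and Mpo only narrowly so. Of the 15102 genes tested over all mice, 24.6% show this pattern.

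The comparison of sick KD with young KD addresses what changed in KD marrow between the healthy and the ill state, and 6 of the 8 genes rose in it. These were the 3 proteases, Ms4a3, Srgn and Serpinb1a, by 1.36-fold (Prtn3) to 2.03-fold (Ms4a3). In the same comparison 20.9% of all 14656 genes tested passed the threshold in either direction and 9.45% were higher (edgeR quasi-likelihood test, adjusted p under 0.05). The median log2 fold change of the 8 genes was 0.69, against 0.01 over all genes tested. Both sick KD libraries lay above the other 6 libraries in 7 of the 8 genes, a pattern that 24.6% of the 15102 genes tested over all mice showed.

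Elane, the gene of neutrophil elastase, was at 962 and 1152 CPM in the sick KD mice, 534 and 623 in young KD, 688 and 581 in young KO, and 563 and 741 in old KO. Both sick KD libraries were above every other library, and the ranges of the other 3 groups overlapped. The difference from young KD was 0.86 on the log2 scale (SE 0.14, adjusted p = 0.0136, edgeR), and that of old KO from sick KD was -0.69 (SE 0.19, adjusted p = 0.0455).

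Prtn3, its neighbour on chromosome 10, was at 1117 and 1205 CPM in sick KD, 828 and 876 in young KD, 944 and 902 in young KO, and 741 and 962 in old KO. The old KO mice differed from each other by more than either differed from the young groups. Prtn3 rose by 0.44 from young to sick KD (SE 0.11, edgeR adjusted p = 0.0408), and the value of -0.44 for old KO against sick KD did not pass (SE 0.17, adjusted p = 0.118).

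Ctsg, the gene of cathepsin G, was at 925 and 890.3 CPM in sick KD, 515 and 597 in young KD, 696 and 557 in young KO, and 581 and 696 in old KO. Sick KD was again above the rest without overlap. The rise from young KD was 0.70 (SE 0.12, edgeR adjusted p = 0.0153), while the log2 fold change of old KO against sick KD, -0.50 (SE 0.15), was not called (adjusted p = 0.0626).

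Mpo, the gene of the granule peroxidase, was at 2923 and 3469 CPM in sick KD, 2286 and 2436 in young KD, 2620.2 and 2463 in young KO, and 2199 and 2902 in old KO. Its lower sick KD library was only just above the higher old KO library with TMM scaling, and below it without a scaling factor. The log2 fold changes of 0.43 against young KD (SE 0.13, 95% interval 0.11 to 0.75) and -0.32 for old KO against sick KD (SE 0.19, interval -0.78 to 0.13) both missed the edgeR threshold (adjusted p = 0.0642 and 0.272).

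Ms4a3 was at 357 and 323 CPM in sick KD, 153 and 180.3 in young KD, 199.5 and 168 in young KO, and 162 and 192 in old KO. The sick KD libraries were well separated from the other 6, which together spanned 153 to 199.5 CPM. The log2 fold change was 1.02 against young KD (SE 0.13, edgeR adjusted p = 0.00722), or 2.03-fold, and old KO was 1.92-fold lower than sick KD (log2 fold change -0.94, SE 0.15, adjusted p = 0.00966).

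Serpinb1a, the serpin that inhibits the granule proteases, was at 293 and 279.6 CPM in sick KD, 128 and 172 in young KD, 186 and 151 in young KO, and 146 and 154 in old KO. The inhibitor was thus highest in the same libraries as its targets. It rose by 0.93 from young to sick KD (SE 0.16, edgeR adjusted p = 0.0140) and was lower in old KO than in sick KD by a log2 fold change of -0.93 (SE 0.12, adjusted p = 0.00640).

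Srgn, the gene of the granule proteoglycan serglycin, was at 481 and 477 CPM in sick KD, 301 and 292 in young KD, 307 and 299 in young KO, and 249.6 and 317 in old KO. It varied less between mice of a group than the other members did, except in old KO. The log2 fold change was 0.68 against young KD (SE 0.11, edgeR adjusted p = 0.0116) and -0.76 for old KO against sick KD (SE 0.16, adjusted p = 0.0223).

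Ctsc, whose product activates the proteases, was at 976 and 866 CPM in sick KD, 785 and 961 in young KD, 1002 and 945 in young KO, and 905 and 853 in old KO. The sick KD libraries overlapped each of the other 3 groups, and the highest level was in a young KO library. The log2 fold change of sick KD against young KD was 0.07 (SE 0.14, 95% interval -0.27 to 0.41, edgeR adjusted p = 0.754) and that of old KO against sick KD -0.06 (SE 0.15, interval -0.41 to 0.28, adjusted p = 0.790).

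**Figure D2:**
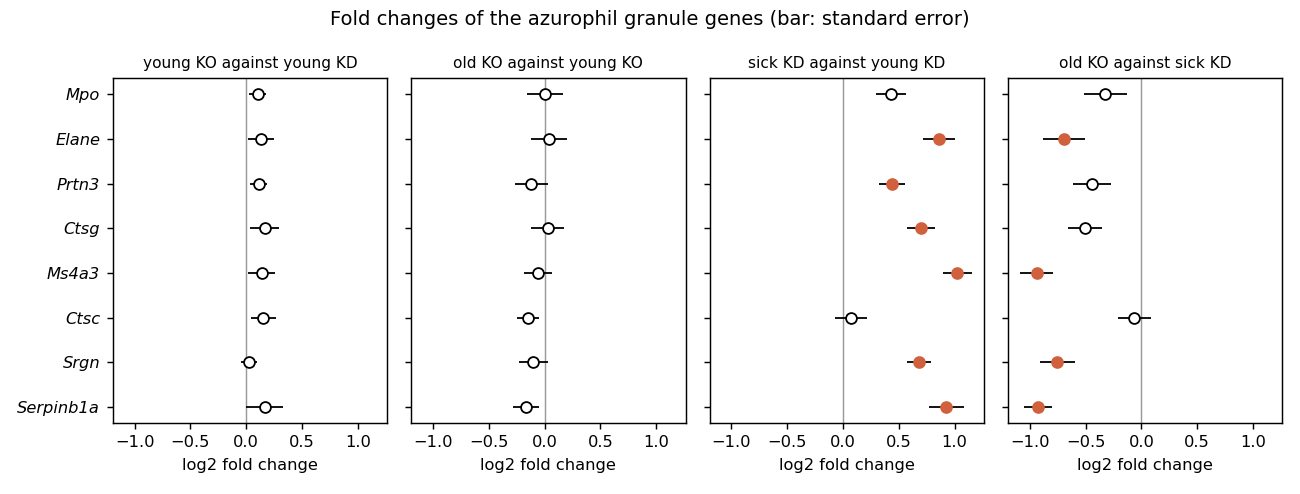
Log2 fold change of the 8 genes in 4 comparisons, with bars of 1 standard error, and filled symbols for an adjusted p under 0.05 (edgeR). The 2 comparisons that contain sick KD hold 6 and 4 filled symbols, and the 2 that do not hold 0. Over all genes tested, 20.9% passed in sick KD against young KD and 18.1% in old KO against sick KD. The shares were 0.0404% in young KO against young KD and 0.929% in old KO against young KO.

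Taking old KO against sick KD as a whole, which compares the ill KD mice with KO mice that were not ill, 4 of the 8 genes were lower in old KO (Elane, Ms4a3, Srgn and Serpinb1a) and 0 were higher. Over all 14470 genes tested 18.1% passed in either direction with 9.93% higher and 8.22% lower, that is 1437 higher and 1189 lower. The median log2 fold change of the 8 genes was -0.60 and that of all genes tested was -0.0050. This comparison shares its sick KD libraries with the one against young KD, so that the 2 sets of values are not independent. With the dependence of counts on GC content and exon length removed per library, the split over all genes became 1564 higher and 2280 lower here, and 3080 higher and 1821 lower, in place of 1385 and 1678, for sick KD against young KD. Of the 8 genes 6 were then lower in old KO than in sick KD, and 7 were higher in sick KD than in young KD.

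The counts of members changed when a mouse was left out, which leaves 1 mouse in an arm. Over all genes, fewer also passed without young KD replicate 1 in sick KD against young KD. The same held without sick KD replicate 1 or old KO replicate 1 in old KO against sick KD. A lower count there is therefore not particular to the members. For sick KD against young KD, 6 members became 1 (Ms4a3) without young KD replicate 1 and 4 without young KD replicate 2, where Prtn3 and Srgn were lost (edgeR adjusted p = 0.259 and 0.0906). For old KO against sick KD, 4 members became 2 (Ms4a3 and Serpinb1a) without sick KD replicate 1 or without old KO replicate 1, and 3 without sick KD replicate 2, where Elane was lost (adjusted p = 0.113). Over the fits of sick KD against young KD the log2 fold change was 0.64 to 0.70 for Srgn and 0.39 to 0.50 for Prtn3, and over those of old KO against sick KD it was -0.91 to -0.50 for Elane. Ms4a3 passed in all 8 of these fits, with edgeR adjusted p of 0.00391 to 0.0286 and of 0.00810 to 0.0427.

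Young KO was compared with young KD to ask whether absent and low Gfi1 differ before illness. Here 0 of the 8 genes passed, in a comparison in which 0.0404% of 14839 genes (6 genes) did. At an unadjusted p under 0.05 there were 0 of the 8 members and 394 genes in this edgeR fit, and DESeq2 called 0 of the 8 members and 27 genes in all. The log2 fold changes of the members were all above 0 and small, from 0.03 (Srgn, SE 0.07, 95% interval -0.15 to 0.20) to 0.17 (Ctsg, SE 0.13, interval -0.15 to 0.48), with edgeR adjusted p above 0.99 for each. The widest interval, that of Serpinb1a, reached from -0.24 to 0.57.

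In old KO against young KO, which follows KO marrow with age, 0 of the 8 genes passed and 0.929% of 14847 genes did. At an unadjusted p under 0.05 there were 0 members and 1315 genes by edgeR, and DESeq2 called 0 members and 383 genes. The members' log2 fold changes ran from -0.17 (Serpinb1a, SE 0.12) to 0.04 (Elane, SE 0.16), with edgeR adjusted p of 0.792 to 0.999. The 95% interval for Mpo, at 0.00 (SE 0.16), reached from -0.40 to 0.41. Their direction was not stable, since leaving out old KO replicate 2 took Mpo from 0.0033 to -0.21 and Elane from 0.04 to -0.18.

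An interaction over the 8 mice tested whether KO and KD differed otherwise in the old and sick groups than in the young ones. It passed for 3 of the 8 genes, all negative, where 7.43% of 15102 genes passed in either direction and 3.11% were negative. Serpinb1a had -1.10 (SE 0.22, edgeR adjusted p = 0.0297), Ms4a3 -1.08 (SE 0.19, adjusted p = 0.0226) and Srgn -0.79 (SE 0.17, adjusted p = 0.0344). The other 5 had values of -0.83 (Elane, adjusted p = 0.0676), -0.68 (Ctsg, 0.0759), -0.56 (Prtn3, 0.0986), -0.43 (Mpo, 0.227) and -0.22 (Ctsc, 0.440). No member passed without sick KD replicate 1, old KO replicate 1, young KO replicate 1, young KO replicate 2 or young KD replicate 1. With the GC and length trend removed 6 members passed, and the split over all genes went from 653 positive and 469 negative to 711 and 1407.

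Of 7 ratios formed among the members, 6 did not overlap between the sick KD libraries and the other 6, and 1 did. How often ratios of other genes separate in this way was not counted. Among single genes, 24.6% had both sick KD libraries above the other 6. Elane was at 0.861 and 0.956 of Prtn3 in the sick KD libraries and at 0.645 to 0.770 in the other 6, and at 0.329 and 0.332 of Mpo against 0.234 to 0.263. The 3 proteases summed to 3.08 and 3.75 times the CPM of their activator Ctsc in sick KD and to 2.08 to 2.81 times in the other 6. The ratio of the proteases to their inhibitor Serpinb1a went the other way, at 10.2 and 11.6 in sick KD against 12.2 to 15.6. The ratio of Ms4a3 to Mpo was 0.122 and 0.0932 in sick KD and 0.0662 to 0.0762 in the other 6. Ctsc was at 1.01 and 0.751 times the level of Elane in sick KD and at 1.15 to 1.62 times in the other 6. The ratio of Serpinb1a to Elane overlapped, at 0.305 and 0.243 in sick KD against 0.208 to 0.276. All 7 ratios were formed after the levels were known, several share a gene, with Elane in most of them, and they were not tested. Mpo remained the largest share of the members' counts in every library, at 36.4% to 42.6%.

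Across the 8 libraries, the 7 genes other than Ctsc varied together, with Pearson's r of log2(CPM + 1) between 0.80 and 0.98 over their 21 pairs. Ctsc had r of 0.02 to 0.39 with the others. The sick KD libraries lie apart from the rest in these genes, and in the 6 other libraries r ran from 0.21 to 0.96 for the 7 genes (median 0.77) and from -0.08 to 0.88 for Ctsc (median 0.34). All genes of a library share its RNA and its depth, so r is given as a description.

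The genes whose pattern was most like the mean profile of the 8 were found among 11481 protein-coding genes with a mean of at least 1 CPM. They were Mettl9 (r = 0.993 over 8 libraries), Arhgdib (0.992), Nsmce1 (0.992), Rab7 (0.987) and Clcc1 (0.984), and r was 0.93 to 0.98 in the 6 libraries other than sick KD. Rab7 encodes a late endosomal GTPase. Of these 5, Mettl9 (log2 fold change 0.41, adjusted p = 0.0452) and Rab7 (0.53, adjusted p = 0.0223) were higher in sick KD than in young KD by edgeR. Over all genes tested there, 9.45% were higher. The 5 genes were chosen by their pattern in these same libraries, so their tests are not independent of that choice. The pattern of Mpo alone was most like those of Uqcrq (r = 0.990), Abhd17c (0.984), Pdia5 (0.982), Atp5g2 (0.976) and Mrps15 (0.975), of which Pdia5 encodes a protein disulfide isomerase and Uqcrq and Atp5g2 encode mitochondrial respiratory proteins.

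Of 20 other genes of azurophil granule and lysosomal proteins 19 were tested, and 3 were higher and 1 lower in sick KD than in young KD, where 20.9% of all genes passed. Their median log2 fold change was 0.12, and the lists were not tested against each other. The 3 were Arsb, a lysosomal sulfatase (0.87, SE 0.11, adjusted p = 0.00694), Cd63, a granule membrane tetraspanin (0.59, SE 0.13, adjusted p = 0.0267), and Prss57, the gene of the neutrophil serine protease NSP4 (0.53, SE 0.11, adjusted p = 0.0245). Prss57 was at 49.2 CPM in both sick KD libraries and at 26.8 to 40.7 in the other 6. Psap, the gene of the lysosomal saposin precursor, was lower (-0.53, SE 0.15, adjusted p = 0.0482) and higher in old KO than in sick KD (0.72, adjusted p = 0.0292, edgeR), the only gene of the list that passed there. Lyz2, the gene of lysozyme and named after its values were seen, was at 16988 and 17186 CPM in sick KD and 11285 to 15159.7 in the other 6, but did not pass (log2 fold change 0.41 against young KD, edgeR adjusted p = 0.0577).

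Inhibitors of granule proteases were tested for 13 of 17 listed genes, and 4 were higher and 2 lower in sick KD than in young KD. Over all genes tested there, 20.9% passed in either direction. Spink2 (1.28, adjusted p = 0.0238), Cst7 (0.72, adjusted p = 0.0116) and Slpi (0.68, adjusted p = 0.0120), which encode a Kazal-type inhibitor, cystatin F and the secretory leukocyte protease inhibitor, were higher. Spink2 was at a low level, at 3.11 and 3.34 CPM in sick KD and lower in the other libraries. The log2 fold changes of A2m (-2.23, adjusted p = 0.0419) and Serpinb6b (-1.33, adjusted p = 0.0284) were negative by edgeR, neither of them above 7.22 CPM in any library. Cstb, the gene of the cysteine protease inhibitor cystatin B, was the fourth that rose (0.40, adjusted p = 0.0371). Cystatin F, a lysosomal inhibitor of cysteine proteases including cathepsin C, was at 73.7 and 74.4 CPM in sick KD, above 41.8 to 54.3 in the other 6, whereas Ctsc itself did not pass the test. Cst7 was lower in old KO than in sick KD (-0.57, adjusted p = 0.0268) and Serpinb6b was higher (1.21, adjusted p = 0.0256), with 11 of the 13 genes not passing the edgeR test.

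Among 21 genes of granule protein processing and sorting, 2 were higher and 1 lower in sick KD than in young KD, with a median of 0.03. The share of all genes that passed there was 20.9%. Pdia3, a disulfide isomerase of the endoplasmic reticulum, rose by 0.75 (SE 0.12, edgeR adjusted p = 0.0116), from 215 and 224 CPM to 347 and 392. Xylt1, which starts the glycosaminoglycan chains that proteoglycans such as serglycin carry, rose by 0.58 (adjusted p = 0.0179), and the sorting adaptor gene Gga2 fell by 0.44 (edgeR adjusted p = 0.0385). Pdia3 (-0.57, adjusted p = 0.0365) and Xylt1 (-0.44, adjusted p = 0.0404) were lower in old KO than in sick KD and the chondroitin sulfotransferase gene Chst11 was higher (0.65, adjusted p = 0.0407).

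Of 15 transcription factors listed for the promyelocyte, not all of them particular to it, 1 was higher and 2 were lower in sick KD than in young KD. Over all genes there, 20.9% passed. Klf4 rose by 0.59 (edgeR adjusted p = 0.0368), Gfi1b, an erythroid and megakaryocytic factor as well, fell by 1.57 (adjusted p = 0.0116), and Myb fell by 0.46 (adjusted p = 0.0330). In old KO against sick KD, Gfi1b (1.71, adjusted p = 0.0149) and Gfi1 (1.77, adjusted p = 0.0234, with the limit on Gfi1 counts given above) were higher and Runx1 was lower (-0.50, adjusted p = 0.0259). Cebpa, at 156 and 235 CPM in sick KD and 143 to 254 in the other 6, and Spi1, at 228 and 295 against 225 to 240.3, did not pass in either comparison and are named after their values were seen.

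Genes of the later granules included some of the largest changes among granule genes. Of 10 specific granule genes 5 rose from young to sick KD, with a median log2 fold change of 0.72, and 4 were lower in old KO than in sick KD (median -0.86). Over all genes tested, 9.45% were higher in sick KD than in young KD and 8.22% lower in old KO than in sick KD. Lcn2, the gene of the siderophore-binding protein lipocalin 2, was at 423 and 202 CPM in sick KD and at 26.7 to 90.5 in the other 6 (2.09 against young KD, SE 0.32, adjusted p = 0.0116). Chil3 rose by 1.24 (SE 0.23, adjusted p = 0.0180), from 2536 and 1835 to 6195 and 4209 CPM, and Mmp8, the gene of neutrophil collagenase, by 0.95 (SE 0.20, edgeR adjusted p = 0.0233). Ltf, Camp and Ngp, the genes of lactoferrin, cathelicidin and neutrophilic granule protein, were at 1.48 to 30.4 CPM in every library and did not pass in either comparison and are named after their values were seen. Of 10 gelatinase granule and mature neutrophil genes 1 passed, Retnlg, which was lower in sick KD than in young KD (-1.06, adjusted p = 0.0119) and higher in old KO than in sick KD (1.77, edgeR adjusted p = 0.00944).

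**Figure D3:**
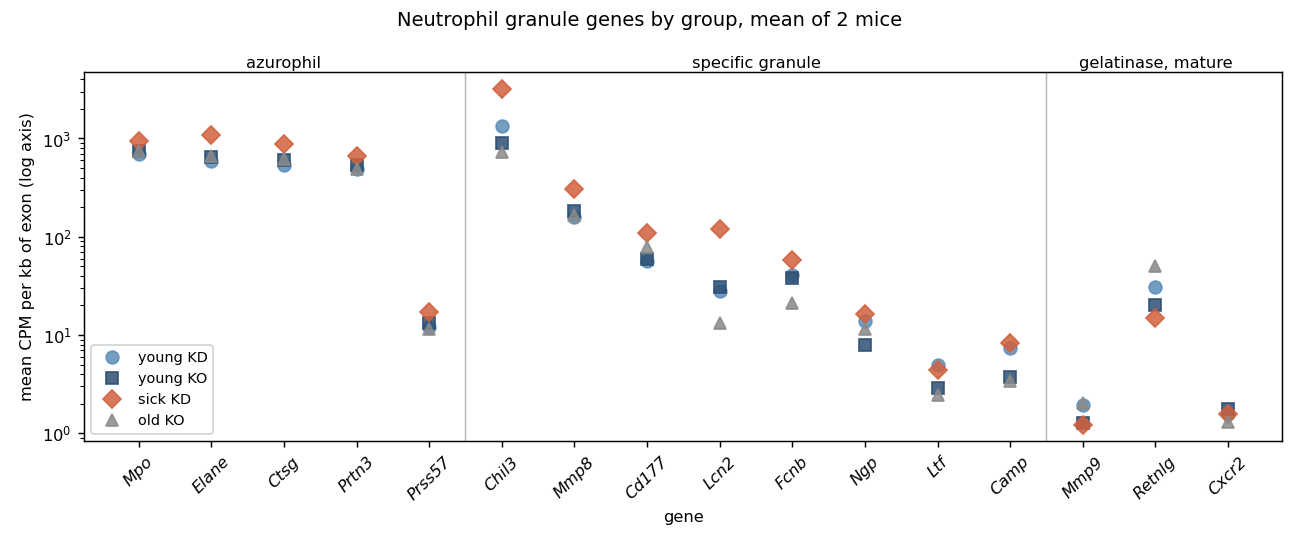
Mean level of granule genes in the 4 groups (2 mice each), in CPM per kb of exon on a log axis, ordered by granule type. Mpo, Elane, Ctsg and Prtn3 lie between 492 and 1074 CPM per kb in every group, and Ltf, Camp and Ngp lie at or under 16.3.

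Markers of other cell types changed in the same comparisons. Over all genes, 20.9% passed in sick KD against young KD and 18.1% in old KO against sick KD. In sick KD against young KD, 10 of 10 erythroid genes (median log2 fold change -1.81), 10 of 10 B-cell genes (median -3.86), 7 of 9 macrophage genes (median -1.31), 4 of 8 eosinophil genes and 4 of 10 T-cell and NK-cell genes were lower. The summed level of the 10 B-cell genes was 38.6 and 99.4 CPM in sick KD against 828 and 1078 in young KD, and that of the erythroid genes 898 and 1324 against 2172 and 5461 CPM. The summed macrophage genes were at 227 and 263 CPM in sick KD and 289 to 525 in the other 6, with the marker Marco at 0 counts in both sick KD libraries and at no more than 0.0744 CPM elsewhere. Of 10 monocyte genes 3 rose, led by Fn1 (1.02, adjusted p = 0.00802) and Ms4a6c (0.82, adjusted p = 0.0235), and 1 fell, Cx3cr1 (-0.92, adjusted p = 0.0182, edgeR). Their summed level was 13008 and 14217 CPM in sick KD against 8524 to 11349.8 in the other 6. The part of these shifts in the values of the azurophil genes was not tested. Of 7 basophil and mast cell genes tested 1 rose (Fcer1a, 0.79, adjusted p = 0.0278, edgeR), and of 10 megakaryocyte genes 0 passed, with 0 also at an unadjusted p under 0.05. Of 10 proliferation genes 0 passed in the edgeR fit of either comparison with sick KD (1 and 2 at an unadjusted p under 0.05), and of 10 progenitor genes 1 rose (Flt3) and 2 fell (Sox4 and Gata1) from young to sick KD.

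Old KO against sick KD gave 10 of 10 erythroid genes higher (median 2.19), 7 of 9 macrophage genes higher (median 2.13), 6 of 8 eosinophil genes higher (median 1.76), 3 of 10 B-cell genes higher, 4 of 7 basophil and mast cell genes higher, 0 of 10 megakaryocyte genes past the threshold (0 also unadjusted) and 6 of 10 T-cell and NK-cell genes higher. Of 10 monocyte genes there 1 was higher (Cx3cr1) and 2 were lower (Fn1 and Ms4a6c), with a median of -0.19, and of 10 progenitor genes 2 were higher (Ly6a and Gata1). In old KO against young KO, where 0 azurophil genes passed, 9 of 10 B-cell genes were lower with a median of -2.18. The summed B-cell level there was 137 and 218 CPM in old KO against 675 and 929 in young KO, at summed azurophil levels of 5546 and 6818 against 6065 and 6644 CPM.

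**Figure D4:**
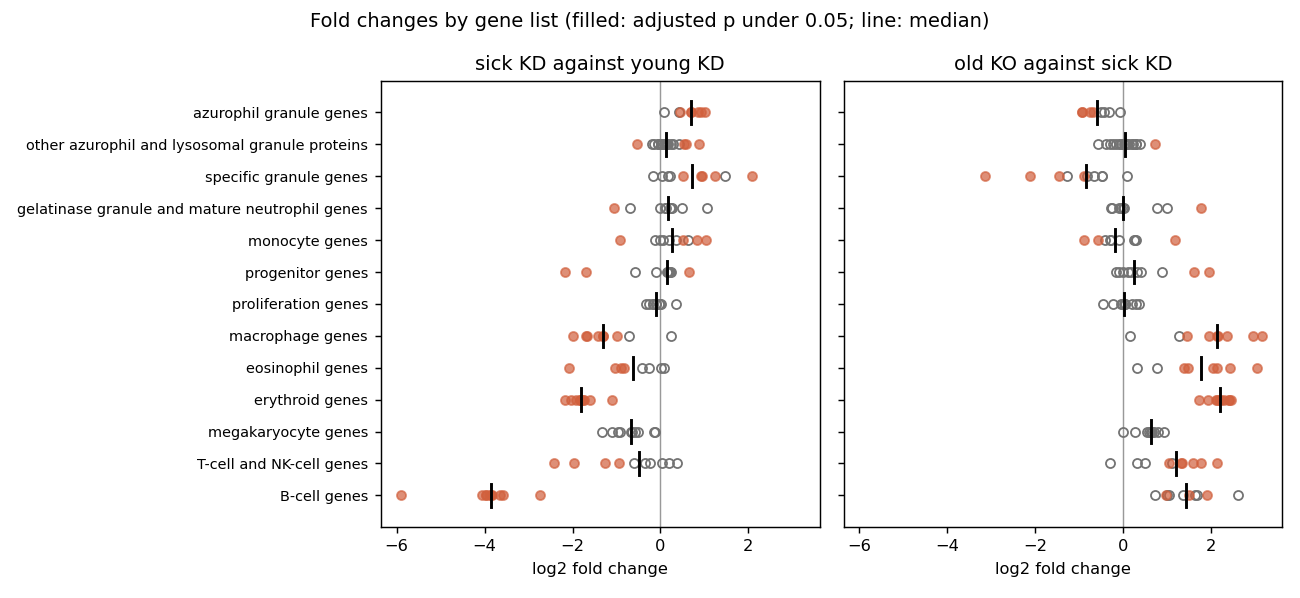
Log2 fold change of each gene in 13 lists for sick KD against young KD and for old KO against sick KD, with filled points for an adjusted p under 0.05 (edgeR) and a black line at the median of each list. The azurophil genes have medians of 0.69 and -0.60, and the erythroid genes -1.81 and 2.19.

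Within 100 kb of a member 74 genes are annotated, with Elane and Prtn3 counted as neighbours of each other. Apart from these, 33 were tested in sick KD against young KD, a comparison in which 20.9% of all genes passed. Of the 33, 3 were higher (Prss57, E130317F20Rik and Ms4a6d) and 1 was lower (Arid3a). Near Elane and Prtn3, Prss57 had a log2 fold change of 0.53, E130317F20Rik 1.62 and Arid3a -0.66. Near Ms4a3, Ms4a6d, which encodes another membrane protein of the Ms4a family, was at 1.44 (edgeR adjusted p = 0.00814). For old KO against sick KD, in which 18.1% of all genes passed, 3 of 35 were higher and 3 lower. Epx, the eosinophil peroxidase gene that lies 59587 bases from its relative Mpo, was higher (1.38, adjusted p = 0.0233) where Mpo was at -0.32, and Mcpt8, a basophil protease gene 14608 bases from Ctsg, was higher (1.24, adjusted p = 0.00373) where Ctsg was at -0.50 (edgeR). Ms4a2, the gene of a mast cell and basophil receptor chain 5777 bases from Ms4a3, was also higher (0.67, adjusted p = 0.0429), and Ms4a6d (-0.96), E130317F20Rik (-1.50) and Tspoap1 (-0.53) were lower. Gm11505 (mean 3.95 CPM) and Plppr3 (mean 72.3 CPM) overlap Mpo and Prtn3 on the opposite strand, and since the strand setting of the counting is not given in the sources used here, reads in those overlaps may be shared or dropped.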

How the data were processed

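Total BM RNA of 8 mice was sequenced by the authors with a stranded poly(A) kit. Reads were aligned with TopHat 2.0.10 to mm10, processed with SAMtools and assigned to Ensembl genes with HTSeq, and the authors deposited the raw count of each gene per mouse. The Ensembl release and strand setting are not given in the sources used here. Symbols and coordinates came from GENCODE M21 (GRCm38), which names 40340 of the 41214 identifiers. The HTSeq tallies were left out of library sizes. Depth per library is given in the text. With at least 4149 counts per member and library, counting error is small beside the spread between mice, and replicates differed by more than sampling noise (chi-square per degree of freedom 23.5 to 38.8).

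Tests used edgeR 4.0.16 under R 4.3.3 (TMM, filterByExpr, quasi-likelihood F test, Benjamini-Hochberg over all genes tested, threshold 0.05), each pair of groups on its own 4 mice and the interaction on all 8. The SE is the absolute log2 fold change over the square root of F. Log2 fold changes are moderated by the edgeR prior count, and log2(CPM + 1) was used for r. For 2 against 2 mice the smallest two-sided exact permutation p is 0.333, so no such test was used. The procedure was tested on simulated data. Of genes changed 2-fold it called 65% in sick KD against young KD and 58% in old KO against sick KD. Of those changed 4-fold it called 100% in both. In the interaction it called 20% of genes changed 2-fold and 94% of those changed 4-fold. The simulation gave every gene the same spread between mice, and only genes above a minimum mean count were changed. It changed 200 genes, far fewer than passed in these 3 real fits, so its rates need not hold for them.

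Alternatives were DESeq2 1.42.0, upper-quartile scaling, 2 other filters, all 8 mice in 1 fit, library sizes without the 50 genes with most counts or without mitochondrial, erythroid and immunoglobulin genes, removal of the trend in GC content and exon length, leaving out each mouse in turn, and log2(CPM + 5) for r. The genes named were the 8 members, Gfi1, up to 3 genes in each direction of each of 16 other lists among those past the threshold, the 5 genes most like the mean profile and the 5 most like Mpo, and tested genes within 100 kb of a member, apart from those said in the text to be named after their values were seen, with Ptprc and Itgam as a check of the tissue. The members and lists were chosen with earlier results of these data known. The authors' own tests were not used, and the sorted-cell libraries of the study were not analysed here.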

Additional observations from a re-analysis of the deposited data

Results flagged for a closer look

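For 3 genes the KO to KD difference in old or sick mice differed from that in young mice by a test of the difference itself, the edgeR interaction over the 8 mice. Ms4a3 had an interaction of -1.08 on the log2 scale (adjusted p = 0.0226), with a KO to KD log2 fold change of 0.14 in young mice and of -0.94 in old KO against sick KD. Srgn had -0.79 (adjusted p = 0.0344), with 0.03 and -0.76, and Serpinb1a had -1.10 (adjusted p = 0.0297), with 0.16 and -0.93. None of the 3 passed without sick KD replicate 1, old KO replicate 1, young KO replicate 1, young KO replicate 2 or young KD replicate 1, nor did Serpinb1a pass without old KO replicate 2 (adjusted p = 0.0537, edgeR) or Srgn without young KD replicate 2 (adjusted p = 0.0870). Genotype, illness and age differ together in this contrast and cannot be told apart.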

How the results depend on the processing

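No paired analysis was possible because the labels give each mouse its own number and the groups share no mouse. The replicate numbers used here only tell the mice of a group apart. With 1 mouse left out an arm holds 1 mouse, which is assumed to vary like the others. The members called ranged from 0 to 0 for young KO against young KD and for old KO against young KO, 2 to 4 for old KO against sick KD, 1 to 7 for sick KD against young KD and 0 to 4 for the interaction. The genes called ranged from 2 to 8 (lowest without young KO replicate 1), 17 to 307 (87 and 307 without old KO replicates 1 and 2, 79 and 17 without young KO replicates 1 and 2), 1221 to 2795 (1221 and 1725 without sick KD replicate 1 and old KO replicate 1), 1316 to 3401 (lowest without young KD replicate 1) and 106 to 1614 (344 and 1614 without sick KD replicates 1 and 2, 249 and 704 without those of old KO, 127 and 137 without those of young KO, 106 and 603 without those of young KD). With all mice, young KO against young KD gave 27 genes (DESeq2), 119 (no filter) and 3 (all 8 mice), old KO against sick KD 4325 (no filter) and 4200 (all 8 mice), sick KD against young KD 4901 (GC and length), old KO against young KO 383 (DESeq2) and 796 (no filter), and the interaction 1951 (DESeq2), 2919 (no filter) and 2118 (GC and length), with 6 members under each of these 3. The summed level in sick KD was 7774 CPM without a scaling factor. Values that changed sign lay near 0. In old KO against young KO these were Elane (-0.087) and Ctsg (-0.12) with the GC and length trend removed, Mpo without a filter (-0.0020), and, over mice left out, Mpo (-0.21 to 0.19), Elane (-0.18 to 0.22), Ctsg (-0.12 to 0.19), Prtn3 (-0.32 to 0.057), Ms4a3 (-0.19 to 0.066) and Srgn (-0.28 to 0.060). Ctsc ranged from -0.15 to 0.025 in old KO against sick KD (0.034 with the GC and length trend removed) and -0.076 to 0.20 in sick KD against young KD, and Serpinb1a from -0.029 to 0.39 in young KO against young KD. The causes were not tested. Every member had at least 4149 counts in every library, and the part of depth in these shifts was not tested.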
